A study of Mus musculus with 2 samples.

Results

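The 10 core genes of the circadian clock were described in RNA from mouse glomeruli: the activators Arntl, Clock and Npas2, the repressors Per1, Per2, Per3, Cry1 and Cry2, the nuclear receptor gene Nr1d1 and the output factor Dbp. All probes of these genes that are not controls were taken, named through the RefSeq accession in the scanner files. This gave 11 probes for 10 genes, of 39429 gene probes and 20659 named genes in all. Dbp had 2 probes and each other gene had 1.

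RNA came from glomeruli, the capillary tufts in which the kidney filters blood, of male mice aged 8 months. The mice of the group labelled Sirpa-/- lacked Sirpa in podocytes, the epithelial cells that wrap the glomerular capillaries, and the mice of the other group were wild type (WT). Both groups had 0.5 ml of pristane, an oil that induces a lupus-like disease, injected into the peritoneal cavity and were followed for 4 months. Each group had 1 array, and no mice without pristane were analysed here. The sources used here do not give the driver of the deletion, the strain, the number of animals behind each array or the hour of the day at which tissue was taken. The design text names podocytes as the material, whereas labels and extraction protocol name glomeruli. The title asks whether loss of SIRPα leads podocytes to present antigen, and it names no clock gene.

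The circadian clock is a transcriptional loop that runs in most cells with a period of about a day. BMAL1 (the product of Arntl) pairs with CLOCK or its relative NPAS2, binds the E-box motif and switches on the Per, Cry, Nr1d1 and Dbp genes. The PER and CRY proteins then block that pair, and REV-ERBα (the product of Nr1d1) represses Arntl through the RORE motif, so that Arntl RNA peaks when Nr1d1, Dbp and Per RNA are low. In the kidney the clock is known for the daily rhythm of filtration and of salt and water excretion. A sample taken at 1 hour of the day therefore shows 1 phase of these rhythms. Since the hour is not given for either array, hour and group cannot be told apart.

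Most clock genes differed little between the arrays. Of 9 clock genes above background on both, 7 were higher on the array labelled Sirpa-/- and 2 were lower, while among all 18239 named genes measured on both arrays 50.2% were higher and 49.8% lower. Of the 7, Npas2, Nr1d1, Dbp and Per1 lay within the error estimate of the scanner software, as did the 2 lower genes. Per2 was 1.51-fold higher, Cry1 1.41-fold and Cry2 1.21-fold. Per1, Dbp, Arntl and Nr1d1 differed by at most 1.11-fold, and Clock was 1.12-fold lower. Per3 was above background on the array labelled Sirpa-/- alone. Since each group had 1 array, differences have no replicate check, no p-value is given, and each value compares these 2 arrays alone.

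The arrays were alike in quality, with 86.7% of gene probes well above background on the array labelled Sirpa-/- and 85.3% on the WT array, and 0 gene spots saturated. Sirpa itself had a processed signal of 17315 on the array labelled Sirpa-/- and 11624 on the WT array, 1.55-fold higher, which goes against the label. Whether its probe lies in the deleted part is not given, and other glomerular cells keep the gene, so the probe may check nothing. All directions below compare the array labelled Sirpa-/- with the WT array by label. Markers of podocytes, endothelium and mesangium were measured on both arrays for all 6, 5 and 6 genes looked at, with medians of 0.16, -0.07 and -0.07 on the log2 scale. Single genes spread more widely. Podocyte markers ran from -0.07 to 0.63 (Nphs1) and endothelial markers from -0.2 to 0.08. Mesangial and smooth muscle markers ran from -0.42 (Itga8) to 1.13 (Myh11, at dim signals). The arrays lay on the same slide at positions 3 (labelled Sirpa-/-) and 1 (WT), so that position and group cannot be told apart.

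The promoters of the clock genes were searched for the motifs through which the loop is wired. RefSeq promoter windows (build GRCm38.p6, 250 bases before to 50 after the start) matched 9 of the 10 genes, in 13 windows. Per2 was not matched. Both strands were searched for the E-box CACGTG, the D-box TTATGTAA to which DBP and its relatives bind, the nuclear receptor core site AGGTCA and the RORE in a shorter and a longer form, in which this core follows a run rich in A and T. The longer form contains the shorter one, and both contain the core. Of 32851 mouse windows of the same length, 7.15% held the E-box, 0.938% the D-box, 16.3% the core site, 0.219% the shorter RORE and 0.0213% the longer one. Counted by gene, as for the clock, 8.09% of 27025 genes had the E-box in at least 1 window, 1.11% the D-box, 18.1% the core site, 0.259% the shorter RORE and 0.0259% the longer one. Of the 9 matched clock genes, 2 had the E-box, 1 the D-box, 3 the core site and 1 both RORE forms. The RORE letters were set before the search, and whether they were first described in Arntl itself was not checked. The RORE match in Arntl is therefore not read against these shares. The 4 windows below are shown because each holds a motif named for the clock: the E-box in the repressor genes Cry1 and Per1, the D-box in Per3 and the RORE in Arntl. Capitals mark the motifs.
Cry1, chr10:85185005-85185304, minus strand: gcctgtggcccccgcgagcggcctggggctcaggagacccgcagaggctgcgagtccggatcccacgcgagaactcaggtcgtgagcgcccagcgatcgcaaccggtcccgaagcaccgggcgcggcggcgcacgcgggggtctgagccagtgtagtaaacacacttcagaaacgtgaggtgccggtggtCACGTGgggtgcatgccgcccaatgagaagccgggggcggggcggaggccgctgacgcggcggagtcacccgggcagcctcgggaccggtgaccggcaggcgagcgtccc
Per1, chr11:69098699-69098998, plus strand: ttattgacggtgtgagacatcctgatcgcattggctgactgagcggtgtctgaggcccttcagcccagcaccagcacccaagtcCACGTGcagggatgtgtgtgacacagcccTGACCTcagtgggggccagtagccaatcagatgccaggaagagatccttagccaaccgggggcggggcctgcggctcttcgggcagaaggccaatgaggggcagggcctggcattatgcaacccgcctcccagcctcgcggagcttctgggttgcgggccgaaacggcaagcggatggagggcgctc
Per3, chr4:151044616-151044915, minus strand: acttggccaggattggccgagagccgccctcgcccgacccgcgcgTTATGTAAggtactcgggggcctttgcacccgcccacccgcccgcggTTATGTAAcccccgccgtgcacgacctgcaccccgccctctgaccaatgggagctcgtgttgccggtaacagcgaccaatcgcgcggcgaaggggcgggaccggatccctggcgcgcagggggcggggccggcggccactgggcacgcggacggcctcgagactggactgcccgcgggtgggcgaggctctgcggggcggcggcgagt
Arntl, chr7:113207261-113207560, plus strand: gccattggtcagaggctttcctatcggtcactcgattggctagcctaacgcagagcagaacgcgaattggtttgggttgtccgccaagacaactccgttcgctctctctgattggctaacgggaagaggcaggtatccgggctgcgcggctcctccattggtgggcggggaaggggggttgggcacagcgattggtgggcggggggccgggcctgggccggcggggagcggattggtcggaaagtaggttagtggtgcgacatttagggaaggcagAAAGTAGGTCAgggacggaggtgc
The E-box began 60 bases before the start in Cry1 and 166 bases before it in Per1, where a core site on the opposite strand began 137 bases before the start. Per3 held the D-box at 2 places, 205 and 158 bases before the start. In Arntl the longer RORE began at base 27 after the start. The remaining windows, those of Clock, Npas2, Cry2, Nr1d1 and Dbp among them, held no E-box, D-box or RORE in these letters, and a window of Clock held 1 core site. Sites outside the windows or in other letters were not searched, so these genes may still hold such motifs. For example, the Arntl window shown also holds aaagtaggtta, a near match to the longer RORE that is not marked. The 2 E-box genes did not share a difference, since on the array labelled Sirpa-/- Cry1 was 1.41-fold higher and Per1 1.01-fold. A motif match describes the sequence alone and does not show that a factor was bound.

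Among the activators, Arntl encodes BMAL1, without which the loop stops. Its processed signal, the spot brightness after background subtraction, was 221.7 ± 22.2 on the array labelled Sirpa-/- and 236.6 ± 23.7 on the WT array, where ± is the error estimate of the scanner software. After each array was scaled to its 75th percentile the log2 difference was -0.03, and it turned to 0.01 when the background was corrected by normexp. The arrays were therefore close for Arntl, within the software error of the difference of 0.2. Clock, the DNA-binding partner of BMAL1, gave 2603 ± 260 on the array labelled Sirpa-/- and 3056 ± 306 on the WT array. Its log2 difference was -0.17, or 1.12-fold lower, also under the software error of 0.2. Npas2, which can stand in for CLOCK, was barely above background at 10.59 ± 1.81 on the array labelled Sirpa-/- and 9.192 ± 1.88 on the WT array. Its difference of 0.27 was smaller than its software error of 0.39 and no order can be read from it.

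**Figure D1:**
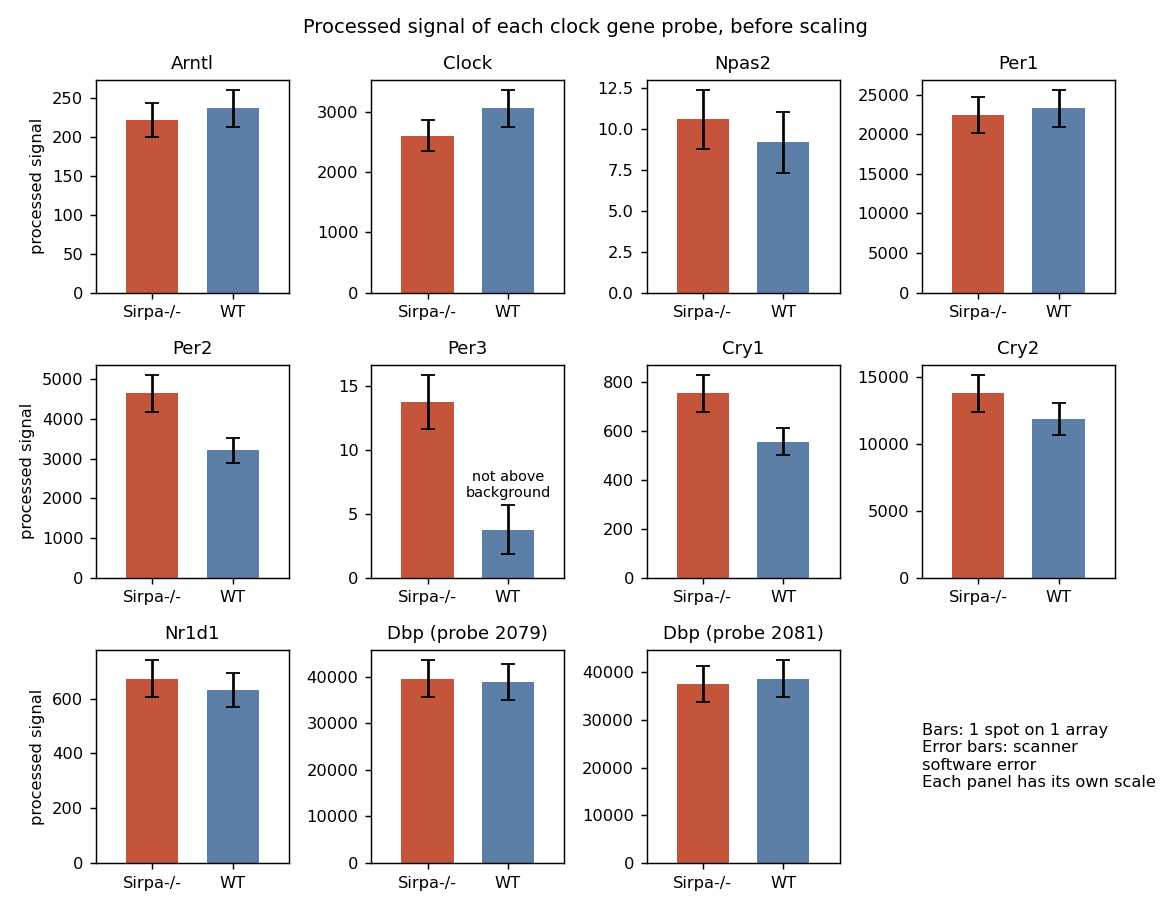
Processed signal before scaling (vertical axis, linear, from 0, own scale in each panel) of each of the 11 clock gene probes on the array labelled Sirpa-/- (left bar) and the WT array (right bar). Error bars are the scanner software's error estimate for 1 spot. The bars part beyond their error bars for Per2, Cry1 and Per3, and their error bars overlap for the other 8 probes.

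Of the repressor genes, Per2 stood furthest apart among those measured on both arrays. It encodes PERIOD2, the partner that carries CRY proteins to the BMAL1 and CLOCK pair. Per2 had a signal of 4642 ± 464 on the array labelled Sirpa-/- and 3207 ± 321 on the WT array. The log2 difference was 0.6, which is 2.9 times its software error. Per2 was the 1 clock gene of 9 that reached 1.5-fold higher, a size that 4.34% of all measured genes reached, and it passed narrowly. No clock gene of the 9 was 1.5-fold lower, against 5.27% of all genes, and 0 of 9 reached 2-fold higher or lower, against 1.56% and 1.67%.

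Per1, a PERIOD gene that responds to light and hormones, showed no such gap. It had a signal of 22405 ± 2241 on the array labelled Sirpa-/- and 23264 ± 2326 on the WT array. After scaling its log2 difference was 0.01, with values from -0.02 (normexp) to 0.02 over the alternatives. Per1 and Per2 thus differed unequally: the ratio of Per2 to Per1 signal was higher by 0.59 on the log2 scale on the array labelled Sirpa-/-, and any scaling factor of an array cancels from this ratio. Per3, the PERIOD gene that is least needed for the rhythm itself, had a dim signal of 13.76 ± 2.11 on the array labelled Sirpa-/-. On the WT array it read 3.767 ± 1.93, not well above background. Set against the lowest signal well above background on the WT array (6.72), Per3 on the array labelled Sirpa-/- was 2.14-fold higher. This value leaves out the software error, so it is not a strict lower limit. A value of at least 2-fold on this measure was found for 23.1% of the 438 genes above background on that array alone, so that Per3 was 1 of 101.

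Both cryptochrome genes, whose proteins are the main repressors of the loop, were higher on the array labelled Sirpa-/-. Cry1 had 753.6 ± 75.4 there and 556.6 ± 55.7 on the WT array. Its log2 difference of 0.5 was 2.4 times the software error, and 5.7% of all measured genes were at least as far above 0. Cry2 had 13800 ± 1380 on the array labelled Sirpa-/- and 11914 ± 1191 on the WT array. Its difference of 0.27, or 1.21-fold, was 1.3 times the software error, and 13.6% of all genes were at least as far above 0. Cry1 therefore lay just under the 1.5-fold size, and Cry2 further below it.

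Nr1d1 and Dbp have among the widest daily swings of any RNA in mouse tissues, and neither differed beyond the software error. Nr1d1 gave 672.8 ± 67.3 on the array labelled Sirpa-/- and 631.6 ± 63.2 on the WT array, a log2 difference of 0.15. For Dbp, a transcription factor that carries the rhythm to output genes through the D-box, the brighter probe gave 39557 ± 3956 on the array labelled Sirpa-/- and 38812 ± 3881 on the WT array. The other Dbp probe gave 37475 ± 3748 on the array labelled Sirpa-/- and 38676 ± 3868 on the WT array. The log2 differences of the probes were 0.09 and 0.02 after scaling, so both placed Dbp at nearly equal levels on the arrays.

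**Figure D2:**
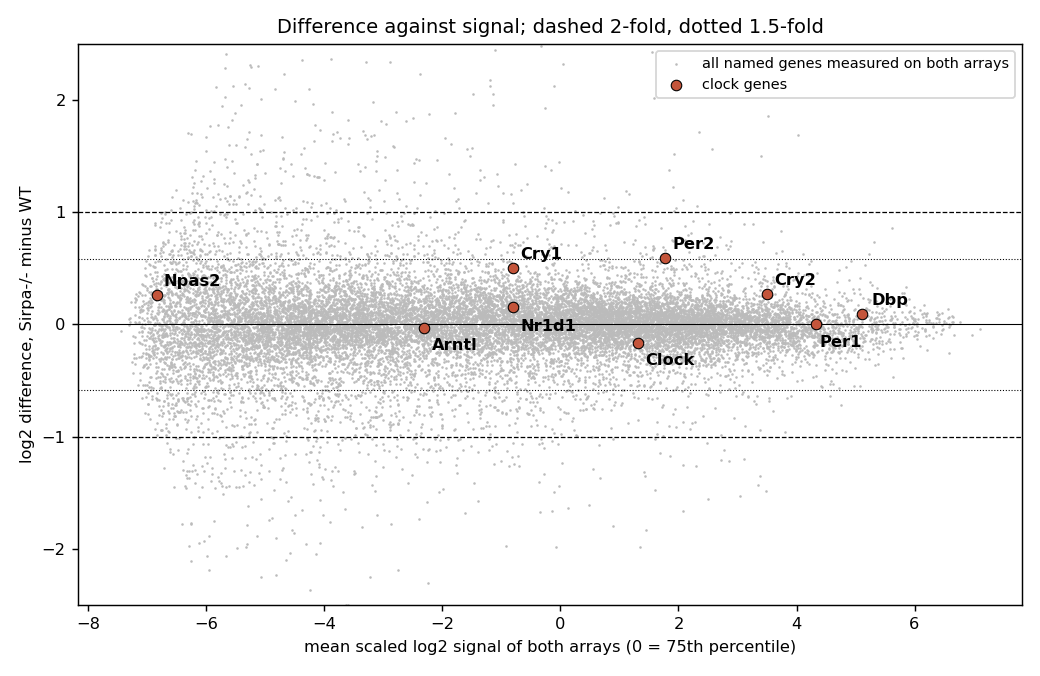
Log2 difference (array labelled Sirpa-/- minus WT, vertical axis) against mean scaled log2 signal (horizontal axis, 0 is the 75th percentile) for 18239 named genes, in grey, and the 9 clock genes measured on both arrays, in red. Dashed lines mark 2-fold and dotted lines 1.5-fold, and 36 genes lie beyond the drawn limits of 2.5. Per2 sits on the dotted line at 0.6, Cry1 lies at 0.5, and the other 7 clock genes lie between -0.17 and 0.27.

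Grouped by role, the 6 measured genes of the PER, CRY, REV-ERB and DBP side had a median difference of 0.21, from 0.01 to 0.6. All 6 lay above 0 as scaled by the 75th percentile, against 50.2% of all named genes. With normexp Per1 turned to -0.02, and as reported Per1, Dbp and Nr1d1 lay within their software error. The 3 activator genes had a median of -0.03, from -0.17 to 0.27. Over the 9 genes the median was 0.15, and over all 18239 named genes it was 0.0. The ratio of Per2 to Arntl was higher by 0.63 (log2) on the array labelled Sirpa-/-, with 0.61 to 0.67 over the alternatives. The ratio of Cry1 to Arntl was higher by 0.53 (0.42 to 0.53), and that of Nr1d1 to Arntl by 0.19 (0.13 to 0.19). The ratio of Dbp to Arntl, genes that peak at opposite times of the day, was higher by 0.12 (0.09 to 0.16). These brackets cover the choice of processing alone. The differences of Arntl, Nr1d1 and Dbp each had a software error of 0.2, and the ratios of Nr1d1 and Dbp to Arntl lay under it. The largest of the ratios to an activator was Per2 to Clock, at 0.76 (0.76 to 0.92). The unequal change thus lay in Per2 and Cry1 far more than in Dbp and Nr1d1.

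The software error does not include labelling, dissection or animals, nor does the spread between repeated spots given next. Multiples of that spread therefore do not measure how far the groups differ. From 360 probes spotted 10 times on each array, the spread of single-spot differences had a median SD of 0.31 for 101 probes with a signal under 100, 0.07 for 121 probes between 100 and 1000, 0.05 for 113 probes between 1000 and 10000 and 0.04 for 25 brighter probes. Per2 lay 11.9 times the SD of its signal range from 0, Cry1 7.1 times, Cry2 6.8 times and Clock, on the lower side, 3.4 times. Nr1d1 and the brighter Dbp probe lay 2.2 times from 0, Npas2 0.9 times, Arntl 0.5 times and Per1 0.2 times. Probes of the same gene can differ by more than spots do. Among 4561 genes with at least 2 measured probes the brightest probe and the next differed by a median of 0.17 in their log2 differences, and by over 0.61 in the upper 10% of genes. For 2601 genes whose second probe had a mean signal of at least 100 these values were 0.13 and 0.4. Per2 and Cry1 had 1 probe each, so the array holds no second reading of either.

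**Figure D3:**
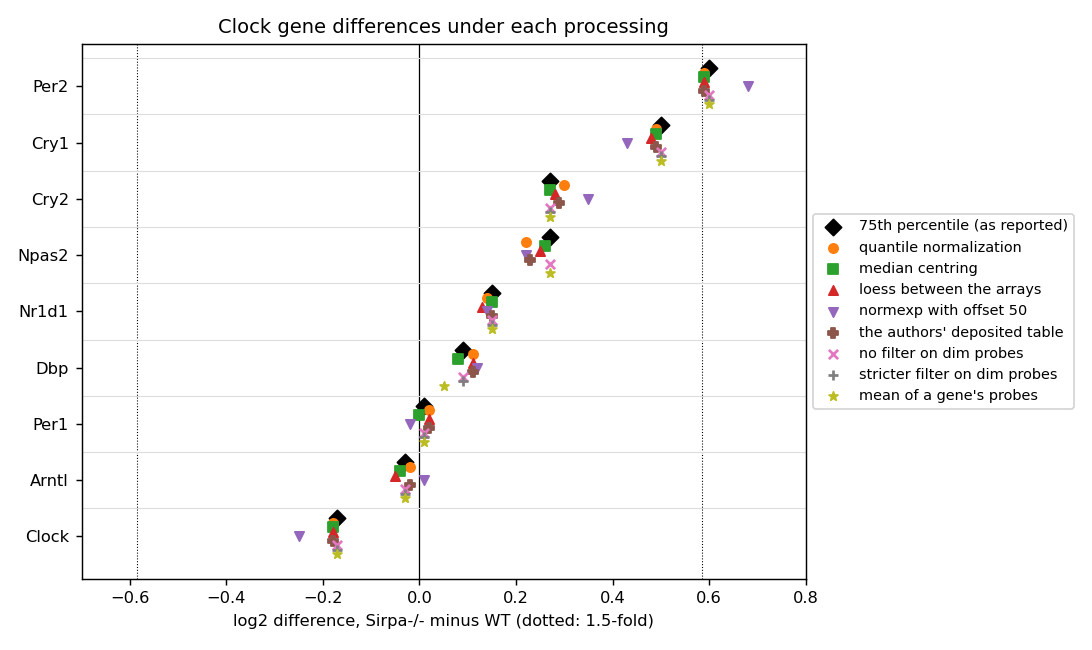
Log2 difference (array labelled Sirpa-/- minus WT, horizontal axis) of the 9 clock genes measured on both arrays (vertical axis) as reported (black diamonds) and under 8 other ways of processing the arrays. Dotted lines mark 1.5-fold. Per2 stays between 0.59 and 0.68 and Cry1 between 0.43 and 0.5, while Per1 and Arntl fall on either side of 0.

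The authors' deposited table of log2 values, a separate processing of the same arrays, gave like values. In it Per2 stood at 12.01 on the array labelled Sirpa-/- and 11.42 on the WT array, a difference of 0.59. Cry1 stood at 9.39 on the array labelled Sirpa-/- and 8.89 on the WT array, and Arntl at 7.63 on the array labelled Sirpa-/- and 7.65 on the WT array. For Per3 the table had 3.58 on the array labelled Sirpa-/- and 2.32 on the WT array. That WT value is the lowest of its column in that table, so the difference of 1.26 rests on a floor.

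Genes that sit next to the core loop showed a like mixture. Of 13 loop partners, all measured on both arrays, 8 lay above 0 and 5 below, with a median of 0.14, and 1 reached 1.5-fold higher against 0 lower. These counts are near the shares over all genes, of which 50.2% lay above 0, 4.34% reached 1.5-fold higher and 5.27% lower. The gene past 1.5-fold was Ciart, whose product CHRONO represses the BMAL1 and CLOCK pair. Ciart had signals of 4760 on the array labelled Sirpa-/- and 3145 on the WT array, 1.58-fold higher, close to the value of Per2. Hlf, a PAR bZIP relative of Dbp, differed by 0.37, and the E-box repressors Bhlhe41 and Bhlhe40 by 0.32 and 0.28. Nfil3, which opposes DBP at the D-box, gave -0.3, and Arntl2, a relative of Arntl, gave -0.54 at dim signals of 18.78 on the array labelled Sirpa-/- and 28.46 on the WT array. With normexp Arntl2 was at -0.05. Nr1d2, the paralogue of Nr1d1, gave 0.08, and Tef, the other PAR bZIP relative of Dbp, 0.14, near their paralogues on the list of core genes.

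Among 17 genes for kinases, ubiquitin ligase parts and cofactors that act on clock proteins, 6 lay above 0 and 11 below, with a median of -0.05 that turned to 0.04 with the mean of a gene's probes. Here 2 of 17 genes were at least 1.5-fold higher and 0 lower, against 4.34% and 5.27% of all genes. Nampt, the rate-limiting enzyme of NAD salvage and a rhythmic BMAL1 and CLOCK target, had 6900 on the array labelled Sirpa-/- and 3347 on the WT array. It was 2.15-fold higher, the only one of the 17 past 2-fold, and its difference was 0.98 (log2) with normexp, just under 2-fold. Usp2, a deubiquitinase of clock proteins whose RNA is itself rhythmic, had 2238 on the array labelled Sirpa-/- and 1233 on the WT array, 1.89-fold higher. The others of the 6 with the largest differences were Cul1 (0.37) and Skp1 (-0.24) of the SCF ligase core, the deacetylase Sirt1 (0.26) and the ligase receptor Fbxw7 (-0.43).

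**Figure D4:**
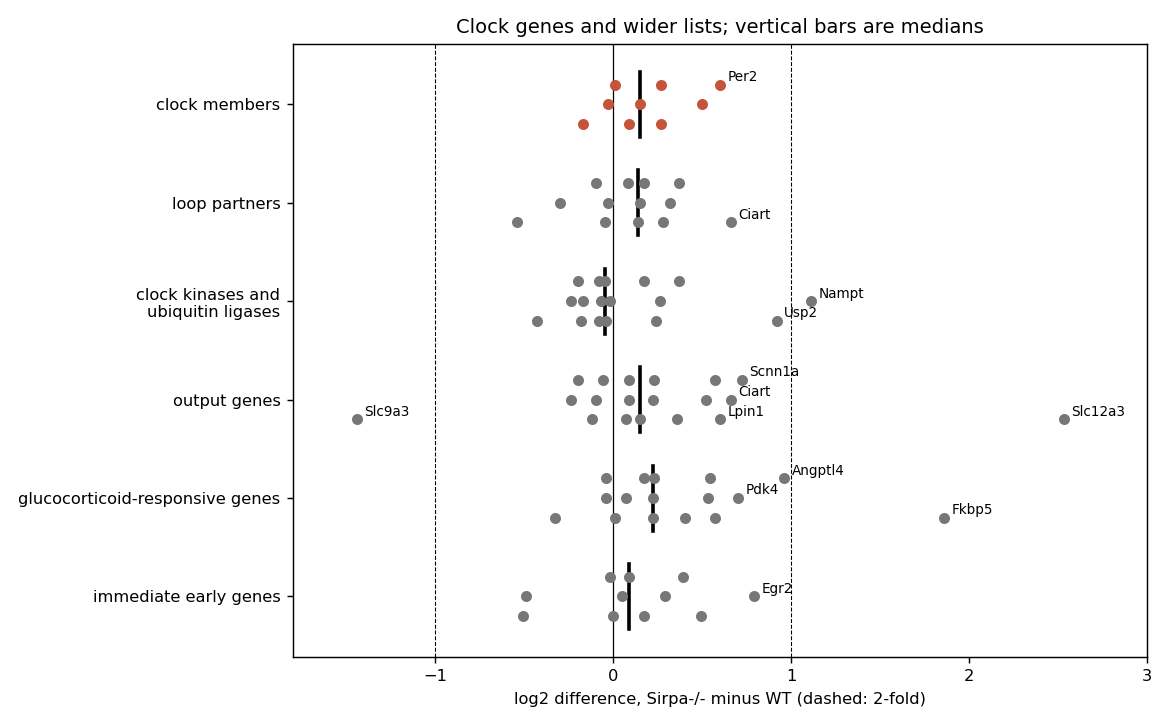
Log2 difference (array labelled Sirpa-/- minus WT, horizontal axis) of each measured gene of the core clock (top row, red) and of 5 wider lists (grey), 1 point per gene, with points spread vertically for clarity. Thick bars are medians, dashed lines mark 2-fold, and genes past 1.5-fold are named. The core clock median is 0.15, and the 5 list medians run from -0.05 to 0.23.

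A list of known or proposed output genes of the clock in kidney or other tissues had 19 of 20 genes measured, with 13 above 0, 6 below and a median of 0.15. At least 1.5-fold higher were 4 of the 19 and lower 1, where all genes had 4.34% higher, 5.27% lower and 50.2% above 0. Ciart is on this list too. Scnn1a, the alpha subunit of the epithelial sodium channel, had 242.4 on the array labelled Sirpa-/- and 153.2 on the WT array, 1.65-fold higher. Lpin1, a phosphatidate phosphatase, was 1.51-fold higher on its brighter probe, while its other, dim probe gave -0.63, so its direction is not settled. Slc12a3, the thiazide-sensitive salt transporter, was 5.77-fold higher, at dim signals of 124.9 on the array labelled Sirpa-/- and 22.58 on the WT array. Its log2 difference of 2.53 was 1.22 with normexp, and the stricter filter on dim probes removed it and with it the list's only gene past 2-fold higher. Slc9a3, the sodium-proton exchanger of the proximal tubule, was 2.72-fold lower at dim signals of 12.68 on the array labelled Sirpa-/- and 36.02 on the WT array, with -0.26 (log2) under normexp, and the stricter filter removed it too. Distal nephron markers, with Slc12a3 among them, had a median log2 difference of 1.17, from -0.15 to 2.53. Proximal tubule markers had a median of -0.26, from -0.93 to -0.25. The part of tubule cells in the differences of this list was not tested. Tsc22d3, which encodes the glucocorticoid-induced leucine zipper protein, gave 0.57, and the mitotic kinase gene Wee1, an E-box target, 0.52. Dhrs9, whose tie to the clock is not certain, was the gene of this list above background on the array labelled Sirpa-/- alone. Set against the same lowest WT signal as Per3, it was 12.2-fold higher, again without the software error.

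Per1 is also a direct target of the glucocorticoid receptor, and the glucocorticoid-responsive list held 16 genes, all measured. Of these 13 lay above 0 and 3 below, and the median was 0.23. At least 1.5-fold higher were 3 of 16, and 5 with normexp, with 0 lower, against 4.34% and 5.27% of all genes, of which 50.2% lay above 0. Fkbp5, a co-chaperone that dampens the receptor, had 24142 on the array labelled Sirpa-/- and 6957 on the WT array, 3.62-fold higher. Angptl4, an inhibitor of lipoprotein lipase, was 1.94-fold higher and Pdk4, a brake on glucose oxidation, 1.63-fold. Tsc22d3 (1.48-fold), Cebpd (1.45-fold) and Mt1 (1.44-fold) followed. Per1, at 0.01, lay far from Fkbp5, so the members of the list differed unequally.

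Per1 is an immediate early gene in some tissues as well, and 11 such genes were all measured, with 7 above 0, 4 at 0 or below and a median of 0.09, or 0.19 with normexp, against 50.2% of all genes above 0. Egr2, the 1 gene of 11 past 1.5-fold higher where all genes had 4.34%, was 1.73-fold higher, at dim signals of 52.7 on the array labelled Sirpa-/- and 31.71 on the WT array. With normexp its log2 difference of 0.79 was 0.43, under that size, while Atf3 reached 0.6, and the stricter filter removed it and left 0 genes past that size. The next were Atf3 (0.49), Arc (0.39) and Ier2 (0.29) above 0, and Nr4a1 (-0.51) and Fos (-0.49) below it. Fos and Nr4a1, which respond within minutes, thus lay on the other side of 0 from Per2.

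Markers of other cells differed between the arrays beside the clock genes. B cell markers were measured for 5 of 5 genes with a summed scaled signal, in multiples of each array's 75th percentile, of 3.17 on the array labelled Sirpa-/- and 0.8 on the WT array. The 4 erythroid markers summed to 47.9 on the array labelled Sirpa-/- and 15.6 on the WT array, and the 6 distal nephron markers to 3.94 on the array labelled Sirpa-/- and 2.13 on the WT array. The 6 proximal tubule markers summed to 5.05 on the array labelled Sirpa-/- and 7.09 on the WT array. All 6 lay below 0, against 49.8% of all named genes. With the mean of a gene's probes Cubn moved to 0.01 and Slc34a1 to -0.13, while Lrp2, Slc5a2, Slc22a6 and Aqp1 kept their values. T cell markers (5 of 5) summed to 1.39 on the array labelled Sirpa-/- and 1.22 on the WT array, and macrophage markers (4 of 5, without Cd68) to 4.19 on the array labelled Sirpa-/- and 4.89 on the WT array. Such sums rest mostly on the brightest genes. By gene, log2 differences of B cell markers ran from 0.52 to 2.32 (Cd22) and of T cell markers from 0.09 (Cd4) to 0.85 (Cd3g). Macrophage markers ran from -0.91 (Adgre1) to 0.31 (Itgam). Markers count as measured only where they were well above background on both arrays, so their presence on both is not a separate result. The distal markers did not differ alike: Slc12a3 (2.53), Calb1 (1.39), Kcnj1 (1.38) and Umod (0.97) lay above 0, while Aqp2 gave 0.15 and Slc12a1 -0.15. The part of these cells in the differences of clock genes was not tested. In bulk RNA, fewer cells of a type and less RNA per cell cannot be told apart.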

How the data were processed

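Glomerular RNA of the group labelled Sirpa-/- and of the WT group was measured on 1 Agilent one-colour array (Cy3) each. Per the file headers, the authors' scanner files hold spot intensity extracted with Agilent Feature Extraction 11.0.1.1 on an array designed on mouse build mm9, background-subtracted and detrended within each array but not normalized between arrays. Version 9.1 is named in the submitters' processing notes. The other deposited columns used hold the software's error and flags of 0 or 1, per the file headers. The authors' deposited table of log2 values covers 39483 probes. Its columns have the same median of 6.5 and correlated best with the array of their own label (r = 0.9938 for Sirpa-/- and 0.9945 for WT), and the sources used here do not give the steps behind it.

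From the intensity, log2 was taken, unflagged spots of a probe were averaged, and each array's 75th percentile over gene probes (1108.8 for the array labelled Sirpa-/- and 1157.4 for WT) was subtracted. A probe counts as measured where the well-above-background flag was set on over 50% of its spots on each array. Names came by accession from RefSeq's GRCm38.p6 gene table (27234 of 39429 matched), used for names alone. The brightest measured probe stands for a gene, and differences are Sirpa-/- minus WT. No test was possible with 1 array per group, so sizes of 1.5-fold and 2-fold are counted. Shares of all measured genes past the same size stand beside the counts. The scaling was tested on simulated data. Python 3.11.15, pandas 2.3.3, R 4.3.3 and limma 3.58.1 were used.

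Other settings tried were median centring, quantile normalization, loess of the difference on signal (span 0.3), normexp with offset 50, the authors' table, no filter or a mean signal of at least 100, the mean of a gene's probes, and 3-fold in place of 2-fold. Normexp used the median spot signal, since the files used here have no column of mean signals. Members and lists were chosen with earlier results of these data known. From each wider list the 6 genes with the largest differences and those past 1.5-fold are named. Cell markers are given mostly as sums, medians and ranges, so a marker left unnamed may also have passed 1.5-fold. Nr1d2, Tef, Wee1 and Dhrs9 were named after their values were seen. No genes are named for a likeness to the clock genes, since 2 arrays give no pattern to compare. The number of arrays limits the precision.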

Additional observations from a re-analysis of the deposited data

How the results depend on the processing

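The median difference of the clock genes was 0.15 as reported and 0.12 to 0.21 over the 8 other ways of processing. Per2 alone reached 1.5-fold higher in each of them, except that without a filter on dim probes the count at 1.5-fold was 2 and that at 2-fold was 1, both through Per3 at 1.93, whose WT signal was not well above background. No clock gene was 1.5-fold lower under any of them, and 0 passed 3-fold among those measured on both arrays. The signs of Per1 and Arntl turned with normexp, to -0.02 and 0.01. Normexp also moved Clock to -0.25, Cry2 to 0.35 and Per2 to 0.68, beyond the spread of repeated spots. With normexp the median over all 18239 named genes was itself 0.07, against 0.0 as reported, so values under it are not centred on 0. Of the values for single clock genes and the wider lists under an alternative, 264 stayed within that spread or within 1.5 times the count and 17 did not. Over all genes, 113 were 2-fold higher and 80 lower with normexp (58.5% higher), against 285 and 304 (48.4%) as reported, and 670 and 613 without a filter, and 119 and 138 with the stricter one. At 1.5-fold, normexp gave 425 higher and 339 lower (55.6% higher), against 791 and 962 (45.1%), the stricter filter 354 and 470, and no filter 1437 and 1489. Npas2 lies too close to background for the stricter filter. No paired analysis was possible because each group has 1 array.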
